A study of Mus musculus with 2 samples.

Results

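Dense runs of distal accessible sites are stretches of the genome in which nuclease-sensitive sites away from gene starts lie close together. The material was kidney from newborn mice of strain B6NCrl (age 0 days, no treatment named), and DNase-seq gave 1 list of accessible peaks for each of 2 biological replicates. The labels give the replicates separate tissue records and 1 donor record, and sex was not collected. The material was labelled kidney tissue with no cell type named, so the cell types of a site cannot be told apart. A shared site was a place where peaks of both replicates overlapped, and it was distal when its centre lay over 1 kb from every transcription start site (TSS) of GENCODE M21. On the 19 autosomes, distal shared sites whose centres were at most 3 kb from the next were chained, and a chain of 5 or more sites was a dense run. There were 2814 runs, and they held 17353 of 149010 autosomal distal shared sites (11.6%), out of 197749 shared sites in all. The runs were chosen by the positions of the peaks in both lists, so the number, length and summed signal of the runs are descriptions and were not tested.

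DNase I cuts DNA where nucleosomes are displaced, and such hypersensitive sites mark promoters, enhancers, insulators and other elements bound by transcription factors. Clusters of distal sites are known from loci of developmental regulators and from highly expressed genes of a cell type, where several elements can act on 1 promoter. The newborn mouse kidney still forms nephrons: progenitors of the cap mesenchyme, the branching ureteric bud, stroma, endothelium and maturing podocytes and tubules lie side by side. The labelled tissue was checked against marker genes. Both replicates had a peak at the promoter of each of 12 kidney genes, from the progenitor factor Six2 (signal 72.9 and 72.4) to the tubule gene Umod (22.8 and 25.3), and at none of 8 genes of other tissues. Of those 8, the leukocyte gene Ptprc had a peak in replicate 1 alone (8.72). The share of all promoters with a peak in both replicates was not set beside these counts, so they are a description only. Signal is the authors' value for each peak, in their units, with unknown scaling for depth.

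To show what the elements look like, the strongest inner site is printed for 6 of the 8 runs with the most sites. Sequences are of the plus strand of GRCm38 (mm10), 5′ to 3′, and capitals mark matches to a consensus motif on either strand.
Tbx2 run, chr11:85843381-85843550: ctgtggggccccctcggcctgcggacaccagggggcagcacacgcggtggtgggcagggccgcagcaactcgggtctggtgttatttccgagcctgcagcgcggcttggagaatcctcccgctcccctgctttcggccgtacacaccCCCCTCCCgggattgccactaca
Meis2 run, chr2:115855941-115856090: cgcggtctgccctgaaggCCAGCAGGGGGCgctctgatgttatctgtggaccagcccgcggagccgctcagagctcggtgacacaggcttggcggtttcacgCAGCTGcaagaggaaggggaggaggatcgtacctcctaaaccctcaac
Tnrc18 run, chr5:142821721-142821890: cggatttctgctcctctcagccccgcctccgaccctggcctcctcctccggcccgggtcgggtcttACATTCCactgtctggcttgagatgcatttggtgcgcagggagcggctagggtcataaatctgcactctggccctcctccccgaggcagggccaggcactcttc
Irf2bp2 run, chr8:126584661-126584830: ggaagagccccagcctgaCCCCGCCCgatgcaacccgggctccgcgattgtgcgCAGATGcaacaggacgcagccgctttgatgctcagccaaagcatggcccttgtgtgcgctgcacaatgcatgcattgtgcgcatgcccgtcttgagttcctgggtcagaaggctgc
Run between Etaa1 and Meis1, chr11:18745981-18746170: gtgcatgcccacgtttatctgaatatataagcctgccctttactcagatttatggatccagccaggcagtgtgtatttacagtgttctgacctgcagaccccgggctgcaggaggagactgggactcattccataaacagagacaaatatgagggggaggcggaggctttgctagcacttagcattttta
Thsd4 run, chr9:60322241-60322410: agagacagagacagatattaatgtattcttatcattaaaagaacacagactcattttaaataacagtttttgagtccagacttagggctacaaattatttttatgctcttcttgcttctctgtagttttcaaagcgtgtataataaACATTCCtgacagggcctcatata

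The inner site of the Tbx2 run held a match to the consensus of KLF and SP zinc-finger factors (GGGNGGGG), beginning at base 148 from the left end. The site of the Meis2 run held a match to the motif of CTCF, the insulator and loop-anchor protein, at base 19 and an E-box (CAGCTG), the motif of basic helix-loop-helix factors, at base 103. TEAD motifs (GGAATGT), bound by the partners of YAP and TAZ, lay at base 67 of the Tnrc18 site and base 147 of the Thsd4 site. The Irf2bp2 site held a KLF/SP match at base 19 and another E-box form (CAGATG) at base 55. None of the 38 motifs searched matched the site between Etaa1 and Meis1. The sites differed in base composition, with a GC content of 68.8% in the Tbx2 site and 32.4% in the Thsd4 site. Their signals were 90.8 and 89.5 (replicates 1 and 2) at Tbx2, 98.6 and 122 at Meis2, 177 and 175 at Tnrc18, 72.7 and 83.3 at Irf2bp2, 85.5 and 82.5 between Etaa1 and Meis1, and 32.7 and 30.5 at Thsd4. The Thsd4 site was the weakest of the 6 in both replicates, although it was the strongest inner site of a 15-site run.

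Most runs were short. The median run had 6 sites, and 2031 runs (72.2%) had 5 or 6. Only 139 runs had 10 or more, with 1621 sites between them. Between the first and last site centre a run spanned a median of 5.42 kb, and the middle 50% spanned 4.03 to 7.03 kb. The shortest run spanned 1.29 kb and the longest 25.9 kb. Together the runs covered 16.3 Mb, or 0.661% of the autosomes, at a median of 1.10 sites per kb. Neighbouring centres within runs were a median of 820 bp apart and 57.5% of these gaps were under 1 kb, while neighbouring distal sites in general were 5280 bp apart.

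The summed signal of a run had a median of 164 in replicate 1 (range 56.7 to 1432) and 159 in replicate 2 (range 51.6 to 1797). Runs held 13.2% of the summed distal signal in each replicate, against 11.6% of the distal sites. At the limit of the rule, 3017 chains of 4 sites had median sums of 102 and 97.8, and 1346 chains of 5 sites had 135 and 128. Chain number fell steadily with size across this limit, and the plot of chains by size shows no break there. The strongest site of a run held a median of 32.4% of the sum in replicate 1 and 32.3% in replicate 2. In 81.0% of runs the same site was the strongest in both replicates.

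**Figure D1:**
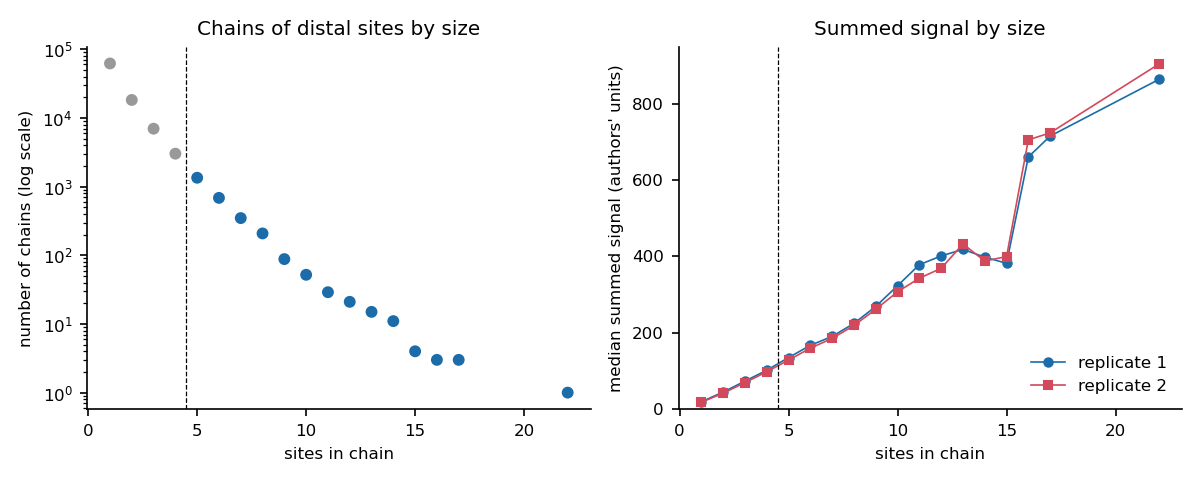
Number of chains (left, log scale) and median summed signal per replicate in the authors' units (right) against the number of distal sites in a chain; the dashed line separates chains of 4 sites from runs of 5 or more. Numbers fall from 62129 single sites to 1 chain of 22 sites, and median sums go from 135 and 128 at 5 sites to 864 and 904 at 22 sites, with a dip at 14 and 15 sites.

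The replicates gave similar sums for a run. After the median was centred, log2 ratios of replicate 1 to replicate 2 lay between -0.59 and 0.57. Across the 2814 runs Spearman's rho of the sums was 0.964, a description over regions that share 2 libraries. Sums rise with the number of sites, which is the same in both replicates. For the signal of individual sites rho was 0.902 in runs and 0.866 among other distal sites. Only 1 run differed by more than 1.5-fold, a 5-site run between the kinase gene Braf and the mitochondrial ribosome gene Mrps33, with sums of 98.3 and 143.1. This run was named after its values were seen. Runs were more numerous in a single list, with 6337 from replicate 1 alone and 6140 from replicate 2 alone. Of the 2814 shared runs, 99.7% overlapped a run of replicate 1 alone and 99.8% a run of replicate 2 alone. The rule largely fixes this overlap, because every site of a shared run holds a peak of each replicate.

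**Figure D2:**
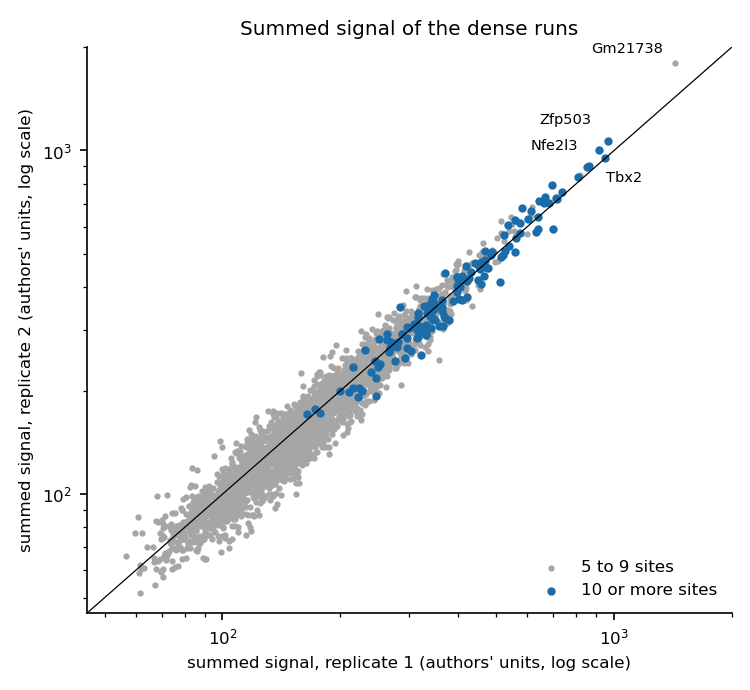
Summed signal of each of the 2814 runs in replicate 1 and replicate 2 (authors' units, both axes on a log scale), with runs of 10 or more sites in blue and the line of equal values. Points lie along the line, and the run at Gm21738 (1432 and 1797) stands above all others with 6 sites.

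The run with the most sites, which was also the longest, lay over Tbx2, a T-box transcriptional repressor of developing organs. It held 22 sites over 25.9 kb (chr11:85823376-85849286) and reached from the last part of Bcas3 across the whole of Tbx2. Its summed signal was 864 in replicate 1 and 904 in replicate 2, or 884 ± 28.5 (SD, n = 2). Of its sites, 12 were intronic, 3 exonic and 7 intergenic, and 3 promoter sites that the rule left out lay inside it. Its strongest site held 10.6% and 10.1% of the sum, so that no single site carried the run. Of its 6 strongest sites, 5 lay past the 3′ end of Tbx2.

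Of the runs next in number of sites, 3 had 17. The run in Smad7, the inhibitor of TGF-β receptors, lay wholly in introns and spanned 16.1 kb of chromosome 18 (808 and 836). Another on chromosome 18, between Cxxc5 and Psd2 and overlapping the noncoding gene AC141471.4, was 22.6 kb from the nearest protein-coding TSS, that of Psd2, and had sums of 580 and 682. The run downstream of Meis2, a TALE homeodomain factor of kidney stroma, was intergenic throughout (715 and 723). It came within 6.63 kb of an internal Meis2 TSS but was centred 210 kb from the 5′-most one. Its sites ranged from 12.8 to 122 in replicate 2, and 5 sites of 69.4 or more in both replicates stood among weaker ones.

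Runs of 16 sites lay at Tnrc18, at Irf2bp2 and between Etaa1 and Meis1. The run over the upstream end of Tnrc18, which encodes a large nuclear protein, had sums of 950 and 948 over 15.6 kb. Irf2bp2, a corepressor of interferon regulatory factor 2, lay inside its run, which had sums of 660 and 705 and contained 4 promoter sites. The third was far from protein-coding TSSs and overlapped the noncoding gene Gm28401. It had 16 sites in 9.74 kb and sums of 476 and 455. The nearest protein-coding TSSs were those of Meis1, 257 kb away, and Etaa1, 792 kb away. Meis1 is the paralog of Meis2 and likewise a stromal regulator.

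**Figure D3:**
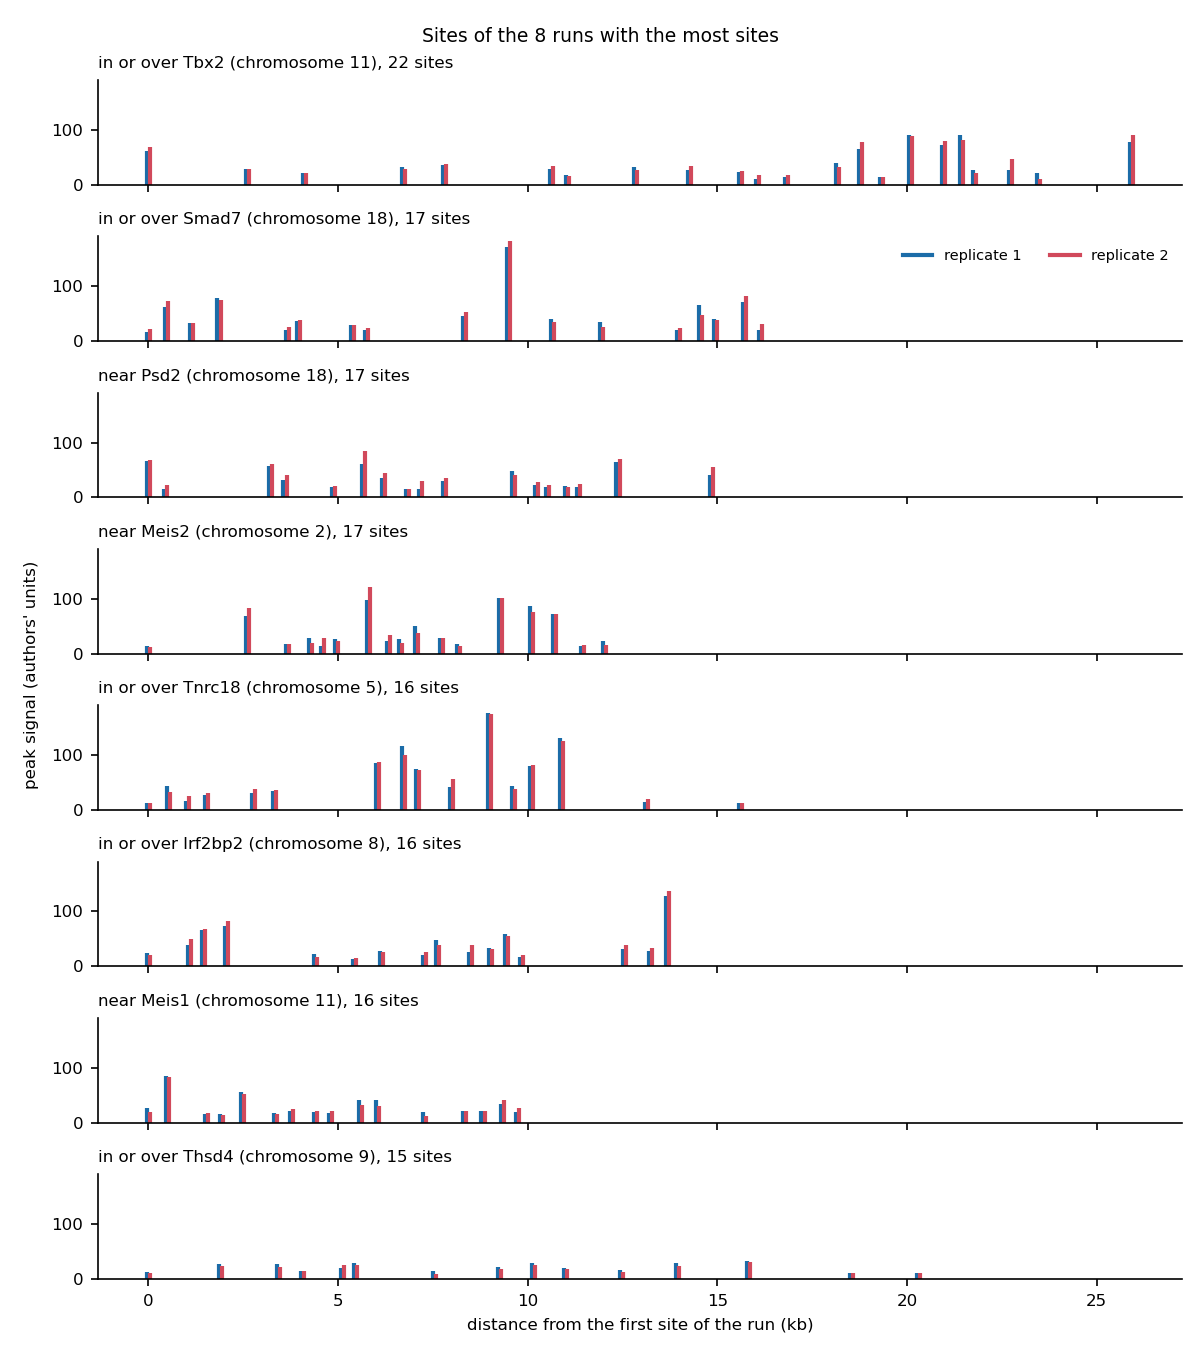
Peak signal in the authors' units of every site in the 8 runs with the most sites, against distance from the first site of the run in kb, with replicate 1 in blue and replicate 2 in red. Strong and weak sites alternate in the runs at Meis2, Tnrc18 and Smad7, while the 15 sites of the Thsd4 run range from 10.1 to 30.5 in replicate 2.

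Other large runs lay in introns. Thsd4, a fibrillin-associated matrix protein gene, held 15 sites over 20.3 kb, the second longest run. Its sums were 315 and 286, and its sites ranged from 10.1 to 30.5 in replicate 2. Lrp6, a Wnt co-receptor, and Ezr, the ezrin that ties microvillar membranes to actin, each held a 14-site run in their introns or, for 1 site of the Lrp6 run, an exon. The sums were 357 and 309 at Lrp6, and 398 and 403 at Ezr. Further long runs lay inside the coiled-coil gene Ccdc85c (12 sites, 19.1 kb, 316 and 338), the carboxypeptidase gene Cpvl (12 sites, 18.65 kb, 632 and 578) and Col18a1, the gene of basement membrane collagen XVIII (11 sites, 17.7 kb, 287 and 291).

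Further runs of 13 to 15 sites lay over or beside genes of several kinds. The run at Uncx, a paired-type homeobox gene, had 15 sites, 12 of them intergenic, with sums of 416 and 419. At Sp9, a zinc-finger gene of the SP family, 15 sites covered most of the gene with sums of 347 and 380, and 5 promoter sites lay between them. The run that began in Foxc1, a forkhead gene of kidney mesenchyme and podocytes, ran on into the enzyme gene Gmds and had 14 sites (409 and 368). Gadd45g, a stress-responsive growth arrest gene, lay within an 18.5-kb run of 13 sites (418 and 462). A 15-site run lay in the first part of Them7, with Rcn1 as the next protein-coding TSS on its other side, and had sums of 560 and 556. The 14 sites between Osbp, an oxysterol-binding protein gene, and the olfactory receptor gene Olfr1423 were all intergenic, with sums of 644 and 711.

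The runs with the 10 highest ranks of summed signal had between 6 and 22 sites and included the Tnrc18, Tbx2 and Smad7 runs described above, in ranks 4, 5 and 8. The first place was held by 6 sites in 1.99 kb over the predicted gene Gm21738 (chr14:19415846-19417836), with sums of 1432 and 1797. On average 70.7% of the 36-base words of these 6 sites were unique in the genome, and for 2 sites fewer than 50% were. Reads there may have more than 1 origin, and the effect on the signal was not tested. Without those 2 sites the chain falls below the minimum of 5 sites and is not a run. Sites under 50% were rare: 21 of the 17353 run sites, in 12 runs, and 188 of the other distal sites. The next sums were 967 and 1067 for 13 sites around Zfp503, a zinc-finger repressor, and 916 and 1004 for 10 intergenic sites between Npvf and Nfe2l3, 258 kb from the latter's TSS. After the Tnrc18 run (950 and 948) and the Tbx2 run (864 and 904), a run of 10 sites between Nr1d1, the clock repressor REV-ERBα, and Msl1, a subunit of a histone acetyltransferase complex, had 853 and 896. The run 1.74 kb from a TSS of the histone demethylase gene Kdm6b, which reached into the dynein gene Dnah2, had 818 and 851 from 9 sites. Irf2bpl, a relative of Irf2bp2, had a run on each side of its neighbourhood, with 738 and 757 next to the gene and 693 and 794 some 77.3 kb from its TSS. Among runs of only 5 sites, high sums were 394 and 449 at 52.8 kb from a Cstad TSS, and 392 and 445 at 12.1 kb from a B4galnt4 TSS.

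Sites in runs were on median stronger than other distal sites, although the rule did not use signal beyond the calling of a peak. In replicate 1 the medians were 21.7 in runs and 19.7 elsewhere, in replicate 2 they were 20.9 and 18.4, and the value was higher in runs on 19 of 19 autosomes in each replicate. It rose with the size of the chain in replicate 1, from 19.2 for single sites to 20.1 in chains of 2 to 4, 21.3 in runs of 5 to 9 and 25.9 in runs of 10 or more. In replicate 2 the values were 17.98, 18.8, 20.5 and 25.2 in the same order. The strongest 10% of distal sites in replicate 1 held 14.1% of run sites and 9.47% of the others, with 13.3% and 9.56% in replicate 2. Even so, 46.1% of runs in replicate 1 and 49.4% in replicate 2 had no site among the strongest 10%. Within runs, inner sites and end sites were close, with medians of 22.1 and 21 in replicate 1 and 21.3 and 20.1 in replicate 2. Sites of a run are neighbours and are not replicates of one another.

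Run sites were also richer in G and C. The median GC content of the central 150 bp was 50.7% in run sites and 48.0% in other distal sites, higher in runs on 19 of 19 autosomes, and the mean number of CpG dinucleotides was 3.01 against 2.33. Repeat content barely differed, with 10.2% of bases soft-masked in run sites and 10.4% in the others. Introns held 56.0% of run sites and 52.5% of the others, a difference of 3.52 percentage points that had the same sign on 16 of 19 autosomes. With only the stronger 50% of peaks in each list the difference was 0.274 points, and with replicate 1 alone it was 6.09. Exons held 5.54% against 5.11%, and the median distance to a TSS was 10.7 kb against 12.4 kb. Within genes, run sites lay closer to the 5′ end, at a median of 43.7% of gene length against 48.6%, and 23.9% against 21.01% were in the first 20% of the gene.

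The letters of 38 consensus motifs were searched for on either strand within the middle 150 bp of every site, and a match describes the letters, not binding. KLF/SP matches (GGGNGGGG) were in 11.6% of run sites and 7.79% of other distal sites, a ratio of 1.49 that was above 1 on 18 of 19 autosomes. This motif is GC-rich, and when sites were divided into 3 classes of GC content the ratios were 1.42, 1.31 and 1.22 from the lowest to the highest class. Matches for TFAP2, the AP-2 factors of epithelia (GCCNNNGGC), were in 5.73% against 4.30%, a ratio of 1.33, but the ratios within the GC classes were 1.11, 0.947 and 1.19. The remaining motifs with high ratios rested on few sites: 3 run sites for YY1, a zinc-finger factor of promoters and loops (ratio 2.85), 14 for C/EBP factors (TTGCGCAA, 2.66) and 16 for SRF, the serum response factor of actin and muscle genes (1.54). These 3 ratios moved with the settings: YY1 to 1.127 with replicate 1 alone and 0 with the stronger 50% of peaks, C/EBP to 1.231 with centres at most 2 kb apart, and SRF to 1.002 with an overlap of 75 bp. GATA, TEAD and the E-box CAGCTG were close to even, at ratios of 0.996, 0.967 and 1.02.

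Fewer run sites held motifs of CTCF and REST. The CTCF motif was in 3.07% of run sites (533 sites) and 4.48% of the others, a ratio of 0.686, and the ratio was above 1 on 1 of 19 autosomes. It was below 1 in each GC class, at 0.314, 0.590 and 0.692. The motif of REST, the repressor of neuronal genes in other tissues, was in 8 run sites (0.0461%) and 491 others (0.373%), a ratio of 0.124 that was above 1 on 0 of 19 autosomes and was 0.0556 with the stronger 50% of peaks. The motif TCANGTTTC, recognised by Six2, was in 0.841% against 1.27%, a ratio of 0.662 that was above 1 on 2 of 19 autosomes. The NFI motif was the other of the lowest ratios, with 0.655 from 12 run sites, and with only the stronger 50% of peaks it was 1.355.

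**Figure D4:**
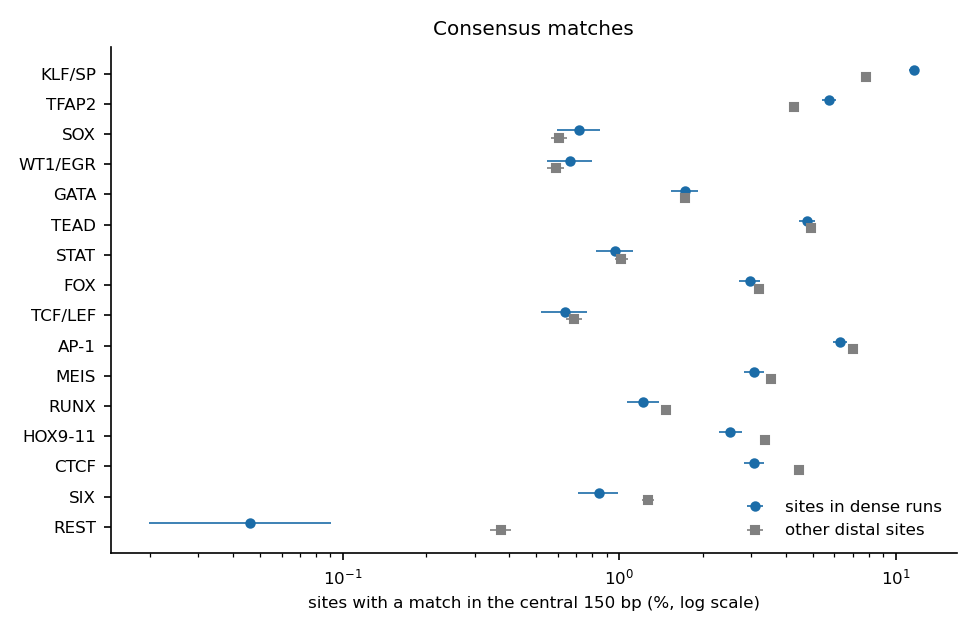
Percentage of sites whose central 150 bp hold a match (log scale) for sites in dense runs (blue) and other distal sites (grey), with exact 95% binomial intervals that cover counting error only; shown are motifs with at least 100 run sites, other than E-boxes, and REST. KLF/SP stands at 11.6% against 7.79%, CTCF at 3.07% against 4.48%, and REST at 0.0461% against 0.373%.

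Runs were spread over all 19 autosomes. The share of distal sites in runs was highest on chromosome 11 (14.3%, 214 runs) and chromosome 8 (14.1%, 184 runs) and lowest on chromosome 16 (9.75%, 90 runs). Chromosome 11 also had the most distal sites per Mb (80.3), but chromosome 19, the next in density (74.0), had 11.0% of its distal sites in runs. Many runs lay near other runs. When runs at most 50 kb apart were joined, 2182 loci resulted, of which 1729 held 1 run and 116 held 3 or more.

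The densest loci combined several runs around structural genes and chromatin genes. The locus of Bahcc1, a chromatin protein gene, and Actg1, the gene of cytoplasmic γ-actin, held 7 runs with 60 sites in 177 kb (summed signal 2428 and 2444). The head-to-head genes Col4a1 and Col4a2, which encode the ubiquitous chains of basement membrane collagen IV, shared a locus of 7 runs with 45 sites in 146 kb (1589 and 1445). Ttc28, a tetratricopeptide repeat gene, held 7 runs with 39 sites in 132 kb (1434 and 1308). The locus of Ccdc85c had 6 runs with 44 sites, and that of Irf2bpl 5 runs with 43 sites and sums of 2109 and 2318. No other locus had 7 runs.

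Of the runs, 1397 (49.6%) lay within 1 protein-coding gene, 292 lay partly in one and 1125 (39.98%) touched none. The median run was 16.0 kb from the nearest protein-coding TSS, 40.7% were within 10 kb and 689 runs (24.5%) were over 50 kb away. A total of 207 runs spanned a TSS of any kind, and 183 enclosed a promoter site. Of 20780 autosomal protein-coding genes, 1278 (6.15%) had a run over part of the body, and 3075 (14.8%) had the centre of a run within 50 kb of a TSS. Genes with a run in the body were long, with a median of 86.1 kb against 17.6 kb for all. The share with a run within 50 kb of a TSS was 11.0% for genes under 10 kb and 25.3% for genes over 100 kb. Neighbouring genes can share a run, so genes are not independent. The most run sites within 50 kb of a TSS were at Bahcc1 (53), Meis2 (42), Bcas3 (41), Col4a2 (40), the RNA-binding protein gene Msi2 (35) and Col4a1 (34). The count of Bcas3 takes in the 22 sites of the Tbx2 run, through a TSS near the 3′ end of Bcas3.

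Gene lists for the cell types and pathways of the kidney, and for other tissues, were set beside the 14.8% of all genes. The 18 lists held 310 autosomal protein-coding genes. In 5 lists the median number of run sites within 50 kb of a TSS was above 0, while the median over all genes was 0. No test was made of any list.

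The transcription factors of nephron progenitors and early nephrons had a run within 50 kb in 10 of 20 genes, with a median of 2.5 run sites and a median length of 13.9 kb. Osr1, the zinc-finger factor of intermediate mesoderm, had a 14-site run 10.3 kb downstream of its 5′-most TSS (267 and 259). Six2, which keeps progenitors undifferentiated, had 2 runs: 9 sites centred 4.96 kb downstream of the TSS (170 and 180) and 5 sites centred 2.93 kb upstream (98.2 and 107). Sall1, a zinc-finger regulator of the same cells, had a 12-site run around its TSS (469 and 459). Irx1, an Iroquois factor of the nephron tubule, had none within 50 kb, and its nearest run was 598 kb away.

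Stromal genes had a run in 13 of 20, with a median of 5 run sites and a median length of 37.5 kb. Meis2 had 5 runs with 42 sites near its TSSs, among them the 17-site run described above. That run was centred 210 kb from the 5′-most TSS, past the 3′ end of the gene, and counted only through an internal TSS. Foxd1, the marker of stromal progenitors, had runs of 10 sites at the gene (210 and 198) and of 6 sites 38.0 kb away (191 and 194). Acta2, smooth muscle actin, had none within 50 kb.

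Signalling genes of kidney development had a run in 15 of 26, with a median of 4.5 run sites and a median length of 63.7 kb. Fgfr2, a receptor for fibroblast growth factors in the ureteric bud, led with 20 run sites, though its annotated body of 2961 kb takes in a distant 5′ start and 1 of the 4 runs lay near that start. Jag1, a Notch ligand, had 3 runs with 19 sites, the largest of 8 sites centred 4.80 kb inside the gene (293 and 303). Spry2, which restrains receptor tyrosine kinases, had runs of 10 sites (346 and 360) and 6 sites (214 and 192). Bmp4 had no run within 50 kb.

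Genes of actin, adhesion and matrix had a run in 14 of 19, with a median of 10 run sites and a median length of 92.8 kb. Col4a2 and Col4a1 had 40 and 34 run sites, and the 2 genes share most of these. The largest run lay in Col4a1, with 13 sites and sums of 464.6 and 433. Tns1, the focal adhesion protein tensin, had 23 run sites, 8 of them in 1 run (294 and 285). Fn1, fibronectin, had none within 50 kb.

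Podocyte genes had a run in 7 of 18, with a median of 0 run sites and a median length of 67.6 kb. Foxc1 had 19 run sites, Tcf21, a basic helix-loop-helix factor of podocytes and stroma, 18 in 3 runs, and the actin crosslinker gene Actn4 15 in 2 runs inside the gene. The largest Tcf21 run, with 8 sites, lay over the TSS (326 and 309). Cd2ap, an adaptor of the slit diaphragm, had none within 50 kb. Endothelial genes likewise had a run in 7 of 18, with a median length of 43.2 kb. Ets1, an ETS factor, had runs with 6, 8 and 5 sites in the gene (261 and 229, 448 and 406, 187 and 193). Its neighbour Fli1 had 9 run sites, Plvap, the protein of fenestral diaphragms, 13, and Ehd3 none.

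The lists of tubules and ducts each had a median of 0 run sites. Proximal tubule genes had a run in 6 of 18, ureteric bud and collecting duct genes in 5 of 22 (22.7%), and genes of the distal tubule and loop of Henle in 2 of 16 (12.5%), beside 14.8% of all genes. Pck1, the gluconeogenic enzyme, had 7 run sites (396 and 371), and Hnf4a, a nuclear receptor of proximal tubules, and the urate transporter gene Slc22a12 had 6 each. Hsd11b2, the enzyme that inactivates glucocorticoids in the collecting duct, had 11 run sites in 2 runs (201 and 211, 157 and 163), the Wnt ligand gene Wnt7b 7, and the sodium channel gene Scnn1a 6. Egf and Wnk4, a kinase that regulates salt transport, had 5 each. The water channel genes Aqp1 and Aqp2 and the calcium-binding protein gene Calb1 had none.

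Hox genes, which pattern the body axis, had a run within 50 kb in 25 of 39, but these came from 10 runs that neighbouring genes share. All 9 Hoxc genes had one and 9 of 10 Hoxb genes, against 5 of 9 Hoxd and 2 of 11 Hoxa genes. Hoxc5 had 23 run sites, among them a 12-site run 6.85 kb upstream of its 5′-most TSS with sums of 577 and 573. However, the annotated body of Hoxc5 takes in a distant 5′ start beside Hoxc10 and spans Hoxc9, Hoxc8 and Hoxc6. The 12-site run lay near that start and overlapped the body of Hoxc11. Hoxb1 and Hoxb5 had 22 each and shared 3 runs, of which the strongest had sums of 374 and 409 from 5 sites. Hoxa10 had none within 50 kb, and its nearest run was 116 kb away.

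In each list of blood cells or of tissues outside the kidney, between 1 and 3 genes had a run, but these lists held only 10 or 12 genes. The shares were 25% for gut and pancreas and 16.7% each for liver and neuron, above the 14.8% of all genes. Below it were the erythroid and germ cell lists (10% each) and the leukocyte and muscle lists (8.33% each). A run was near 1 of 12 leukocyte genes (Csf1r, a macrophage receptor, with none at Adgre1), 1 of 10 erythroid genes (Hba-a2, with none at Ank1), 2 of 12 liver genes (Trf and Ttr, with none at Afp), 1 of 12 muscle genes (Tnnt3, with 12 run sites, and none at Acta1), 2 of 12 neuronal genes (Rbfox3 and Syn2, with none at Elavl4), 3 of 12 gut and pancreas genes (Cpa1, Cdx1 and Cdx2, with none at Cela1) and 1 of 10 germ cell genes (Prm1, with none at Dazl). The run near Csf1r is the same as the run near Cdx1. The list of ubiquitous genes had one in 5 of 14, among them Rplp0 (13 run sites) and Polr2a (7), with none at B2m. The 14 include Pgk2, a testis gene and not a ubiquitous one, which had no run within 50 kb. The shares of the progenitor, podocyte, stromal, endothelial, signalling, actin, Hox and ubiquitous lists were above that of all genes under 11 of 11 other settings. The proximal tubule list and the gut and pancreas list were above it under 10, and the ureteric bud list under 9. These settings rework the same 2 peak lists, so they are not independent of one another. The share of all genes was not matched to the gene lengths of a list.

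The counts themselves moved with the settings, as did the share of all genes, which ran from 2.94% with at least 8 sites to 27.1% without replicate 1. Over the 11 settings the progenitor list had between 2 and 17 genes with a run, the stromal list 5 to 18, the signalling list 4 to 19, the actin list 4 to 17 and the Hox list 8 to 34. The podocyte list had 4 to 14, the endothelial list 2 to 13, the ureteric bud list 0 to 10, the proximal tubule list 0 to 9, the distal tubule list 0 to 5 and the ubiquitous list 2 to 8. Each list of blood cells or of tissues outside the kidney had at most 4 of its 10 or 12 genes. The highest share among these was 40%, for germ cell genes. The progenitor count was 5 with sites over 2.5 kb from every TSS, 2 with the stronger 50% of peaks, and 16 and 17 without replicate 1 and without replicate 2.

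**Figure D5:**
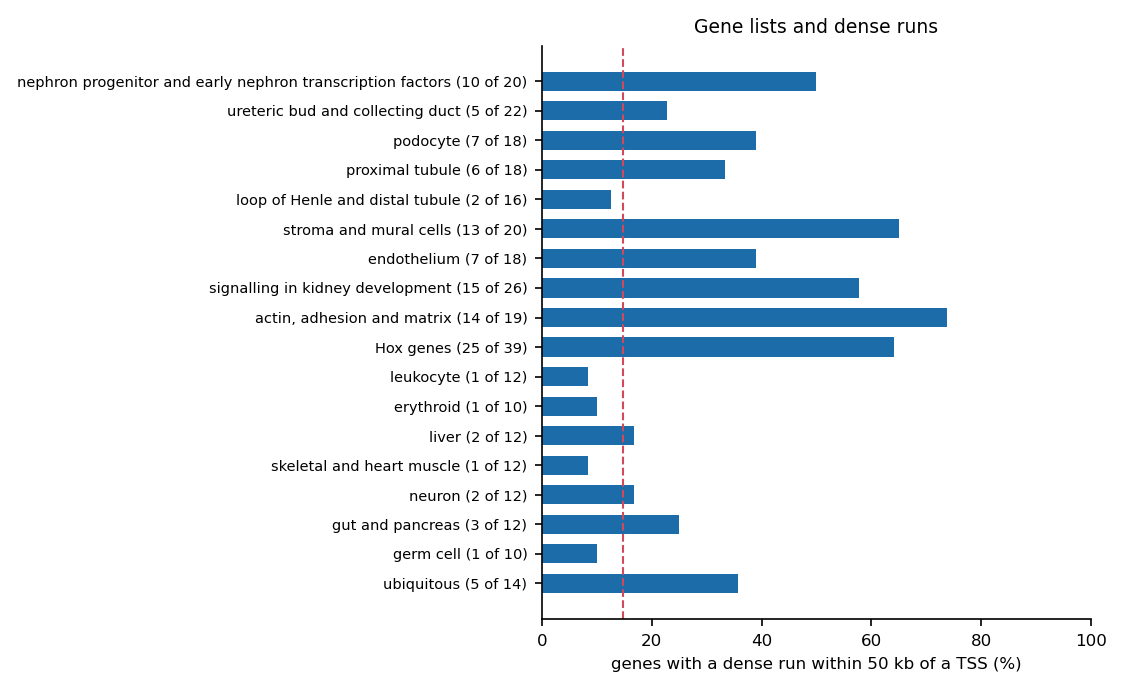
Percentage of the genes of each list with the centre of a dense run within 50 kb of a TSS, with counts in the labels; the dashed line is the 14.8% of all autosomal protein-coding genes. Actin, adhesion and matrix genes (14 of 19), stromal genes (13 of 20) and Hox genes (25 of 39) have the longest bars, and leukocyte and muscle genes (1 of 12 each) the shortest.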

How the data were processed

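DNase-seq of newborn mouse kidney was represented by 1 peak list per replicate (n = 2), each made by the authors from 1 alignment of 36-nt reads to mm10, per the file headers. The signal of each peak is the value deposited by the authors. Not given in the sources used here were the aligner, peak caller, threshold, scaling and depth, so each peak's precision is unknown. The lists held 266133 and 257133 peaks. The members of the rule and the gene lists were chosen with earlier results of these data known.

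Peaks overlapping by at least 1 bp were merged into shared sites, and runs, TSS distances and annotation used GENCODE M21 on GRCm38, the same build as mm10. A run was near a gene when its centre lay within 50 kb of a TSS. Genes named were those over or beside the 15 runs with the most sites, the 10 longest, the 10 with the highest signal rank and the 3 strongest of 5 sites, and in each list the 3 with the most run sites and the first in the alphabet with none; a few of these are not reported here. Motifs named were the 5 highest and 3 lowest ratios, with a few others chosen after their values were seen. With 1 group of 2 replicates there was no test and no p-value, and spread between replicates may be technical. Run finding was tested on simulated data in which no gap lay close to the 3-kb limit, so behaviour at that limit was not checked. Link distance, TSS set and distance, signal, overlap, replicates and minimum size were varied. The tools were matplotlib 3.10.9, numba 0.67.0, scipy 1.17.1, pandas 2.3.3 and numpy 2.4.6 in Python 3.11.15.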

Additional observations from a re-analysis of the deposited data

How the results depend on the processing

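The count of 2814 runs was 1540 with centres at most 2 kb apart, 532 with the stronger 50% of peaks, 5831 with at least 4 sites and 435 with at least 8. In the same order the sites in runs were 9092, 3206, 29421 and 4077 (26643 with 4 kb), and the genes near a run 1864, 760, 5360 and 610. Leaving out a replicate gave 6140 to 6337 runs, 40366 to 41548 sites and 5532 to 5641 genes. Median span was 3.69 kb (2 kb), 7.28 kb (4 kb), 5.35 kb (over 2.5 kb from a TSS), 5.48 kb (protein-coding TSSs), 5.485 kb (overlap of 75 bp), 4.19 kb (at least 4 sites), 8.55 kb (at least 8) and 5.08 to 5.12 kb without a replicate. The intron difference was 0.2736 points with the stronger 50% of peaks, 5.42 with at least 8 sites and 4.498 to 6.09 without a replicate. The ratio of median signal (1.121) was 1.145 (2 kb), 1.155 (75 bp), 1.092 (at least 4), 1.202 (at least 8) and 1.083 to 1.085 without a replicate. The CTCF ratio was 0.7263 (4 kb), 0.5246 (stronger 50%), 0.6693 (75 bp), 0.6986 (at least 4), 0.6646 (at least 8) and 0.6385 to 0.6552 without a replicate. With the stronger 50% of peaks the motif ratios of NFI (1.355) and YY1 (0) turned to the other side of 1. The cause of these moves was not tested.

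The run with the most sites was at Tbx2 in the main setting and in 4 of the 9 alternatives that could move it, since another minimum size cannot. In the other 5 it lay on chromosome 11 from 18745566 (16 sites) with 2 kb, on chromosome 4 (23 sites) with 4 kb, on chromosome 18 (17 sites) over 2.5 kb from a TSS, at Bahcc1 (28 sites) with protein-coding TSSs and on chromosome 12 (31 sites) without replicate 1. Leaving out sites under 50% unique 36-base words was chosen after seeing the data, and under it the counts of runs, sites and genes moved by less than the spread between replicates. No paired analysis was possible because there was 1 group. Unknown depth limits how far a missing peak can be read.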

Other observations

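The X chromosome lies outside the autosomal rule. By the same chaining it held 16 runs with 111 of its 2040 distal shared sites (5.44%). Of these, 5 lay in Bcor, the gene of a Polycomb-associated corepressor, and the largest had 16 sites over 14.2 kb with sums of 366 and 383. The noncoding gene Firre, which organises nuclear chromatin, held 2 runs, of 6 sites with sums of 102 in replicate 1 and 191 in replicate 2, and of 8 sites with 151 and 257. In both Firre runs the sum of replicate 2 was higher. The sex of the animals was not collected.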
